A study of Mus musculus with 14 samples.

Results

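The 9 genes described here carry pyruvate into mitochondria and interconvert it with lactate: Mpc1 and Mpc2, Pdha1, Pdhb and Dlat, Pdk1 and Pdk3, Ldha and Ldhb. They were taken by gene symbol from the 2 deposited tables of read counts, and all 9 were present in both tables, out of 16196 genes that the tables share. The libraries were made from mouse oocytes collected at the germinal vesicle (GV) stage, a long pause in prophase of meiosis I, or after ovulation. CKO oocytes came from Mff fl/fl mice that also carry Gdf9-Cre, in which the Gdf9 promoter drives Cre recombinase in the oocyte. The WT mice were Mff fl/fl without Cre, so both genotypes carry the floxed allele of Mff, the gene for an outer-membrane receptor of mitochondrial fission. There were 3 ovulated CKO, 3 ovulated WT, 4 GV CKO and 4 GV WT libraries, 14 in all. The age and strain of the mice, and how many oocytes and animals stand behind a library, are not stated in the sources used here. The p-values therefore measure how much these libraries vary, which may be technical variation only.

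Mammalian oocytes take up pyruvate, much of it delivered by the surrounding cumulus cells, and use glucose poorly until after fertilisation. In the cytosol, lactate dehydrogenase is a tetramer of the subunits encoded by Ldha and Ldhb that converts pyruvate to lactate and back. The mitochondrial pyruvate carrier, a dimer of MPC1 and MPC2, brings pyruvate across the inner membrane. There the pyruvate dehydrogenase complex turns it into acetyl-CoA: PDHA1 and PDHB form its first enzyme and DLAT its second. The kinases PDK1 and PDK3 switch the complex off by phosphorylating PDHA1.

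Oocytes make almost no new RNA between the GV stage and ovulation and handle stored mRNAs through their 3′ ends, so the ends of 6 annotated transcripts are shown: those of the 5 genes whose share of mRNA differed between the stages in WT oocytes apart from Ldha, and that of Pdk3. Each line is 30 bases around the polyadenylation signal, 5′ to 3′ on the strand of the gene, with the signal in capitals (GENCODE annotation of GRCm38).
Mpc1 (chr17:8297627-8297656, plus strand): taacttaatggcAATAAAtggtttaaatat
Mpc2 (chr1:165481182-165481211, plus strand): ccatttgtccatAATAAAccgtacttggtc
Pdha1 (chrX:160122220-160122249, minus strand): aaaaggaaacgaATTAAActtgtttgattc
Pdk1 (chr2:71903811-71903840, plus strand): tgtttgcaaagaATTAAAcagtgtgctgtc
Pdk3 (chrX:93764627-93764656, minus strand): tctgttccattgATTAAAgcactctaaacg
Ldhb (chr6:142490255-142490284, minus strand): agctcctgatcaAATAAAgttagcaattgc

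All 9 members held a polyadenylation signal near the annotated end. In the last 100 bases of the annotated transcript, read on its own strand, all 9 genes held AATAAA or ATTAAA, against 74.1% of 21746 genes. AATAAA stood in Mpc1, Mpc2, Pdhb, Ldha and Ldhb, and ATTAAA in Pdha1, Dlat, Pdk1 and Pdk3. The letters TTTTAT or TTTTAAT, forms of the cytoplasmic polyadenylation element, were in the same window of 16.5% of the genes and of Pdk3 alone among the 9, where TTTTAT starts 77 bases before the end. A match of letters describes the annotated sequence only, and the end used in these oocytes was not measured.

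Library totals lay between 26575571 and 28847408 counts. The targeted gene, Mff, measured 31.3 to 54.4 CPM (counts relative to the library total, scaled with TMM factors over all 14 libraries) in ovulated CKO and 304 to 688 CPM in ovulated WT oocytes. In GV oocytes it measured 30.1 to 47.2 CPM in CKO and 477 to 945 CPM in WT libraries. Mff was called lower in CKO at both stages, by log2 -3.31 in ovulated (edgeR adjusted p = 0.000155) and log2 -4.27 in GV oocytes (adjusted p = 0.000103). Which part of Mff was deleted is not stated in the sources used here. Oocyte marker genes summed to between 20657 and 42301 CPM in every library. This sum and the other marker sums are relative to library totals without TMM factors, unlike the values of single genes. The TMM factors were 0.697 to 1.26 in GV and 1.05 to 1.47 in ovulated libraries, so these sums do not compare the stages. Of 21 granulosa and cumulus markers, 17 were listed in the ovulated and 19 in the GV table, and their sum was 390 to 460 CPM in ovulated CKO, 343 to 516 in ovulated WT, 114 to 284 in GV CKO and 109 to 254 CPM in GV WT libraries. Among them, Ptx3 was at 0 in every WT library, and Gja1 was at 0 in every ovulated CKO library and up to 8.82 CPM in GV libraries. The FSH receptor gene Fshr measured at most 0.228 CPM in ovulated and at most 1.58 CPM in GV libraries. Other members were present: Cyp19a1 lay between 31.1 and 87.0 CPM in all 14 libraries, Cyp11a1 between 6.64 and 20.2 CPM in GV libraries, and Bmpr1b made up much of the sum in ovulated libraries, at 211 to 278 CPM in CKO and 212 to 358 CPM in WT. Markers of blood and stroma, of which 9 of 15 were listed in the ovulated and all 15 in the GV table, summed to 55.0 to 106 CPM in ovulated CKO, 84.3 to 140 in ovulated WT, 26.2 to 44.3 in GV CKO and 23.5 to 45.9 CPM in GV WT libraries. In GV CKO replicates 1 and 2 and GV WT replicate 2 the 100 most abundant genes held 35.2%, 42.4% and 38.1% of the counts, against 48.2% to 51.1% in the other GV libraries.

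Ldhb was by far the most abundant of the 9 transcripts, and Ldha was at the edge of detection. Compared per transcript length, in deposited FPKM, Ldhb measured 5319, 5002 and 5769 in ovulated CKO and 3433, 2803 and 2215 in ovulated WT oocytes. It measured 6815 to 7622 FPKM in GV CKO and 6372 to 7110 FPKM in GV WT oocytes. That placed Ldhb at ranks 4 to 9 of all genes in every GV library, at ranks 8 to 12 in ovulated CKO and at ranks 18 to 40 in ovulated WT libraries. Ldha stayed at or under 0.75 FPKM in every library, and Ldhb made up at least 99.9892% of the summed FPKM of Ldha and Ldhb in each. Neither aligner nor counter is named in the sources used here, so reads shared with processed copies of these genes cannot be assessed.

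The other 7 members lay between 1.76 and 331 FPKM. Mpc1 came second in every group, with means of 229 ± 89.0 in ovulated CKO, 189 ± 48.9 in ovulated WT, 110.5 ± 37.4 in GV CKO and 85.2 ± 38.3 FPKM in GV WT oocytes (SD, n = 3 and 3 ovulated, 4 and 4 GV). In GV oocytes Mpc2 (58.7 ± 13.6 FPKM in CKO, 43.5 ± 16.4 in WT) and Pdhb (55.3 ± 3.27 FPKM in CKO, 47.8 ± 9.52 in WT) followed with overlapping ranges, then Pdk3 (29.7 ± 2.68 FPKM in CKO, 25.8 ± 6.23 in WT). Pdha1 (16.7 ± 3.98 FPKM in CKO, 18.1 ± 2.39 in WT) and Dlat (13.2 ± 4.29 FPKM in CKO, 11.0 ± 3.90 in WT) also overlapped, and Pdk1 stood apart below them at 3.31 ± 1.53 FPKM in CKO and 2.84 ± 0.73 FPKM in WT. In ovulated oocytes the bottom of the order was different. Dlat (17.6 ± 2.60 FPKM in CKO, 15.0 ± 1.89 in WT), Pdk1 (13.4 ± 2.66 in CKO, 11.2 ± 2.69 in WT) and Pdha1 (11.5 ± 4.06 in CKO, 8.72 ± 3.20 in WT) overlapped in sequence. The GV and ovulated tables were normalised separately, so an FPKM order is read within a group.

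**Figure D1:**
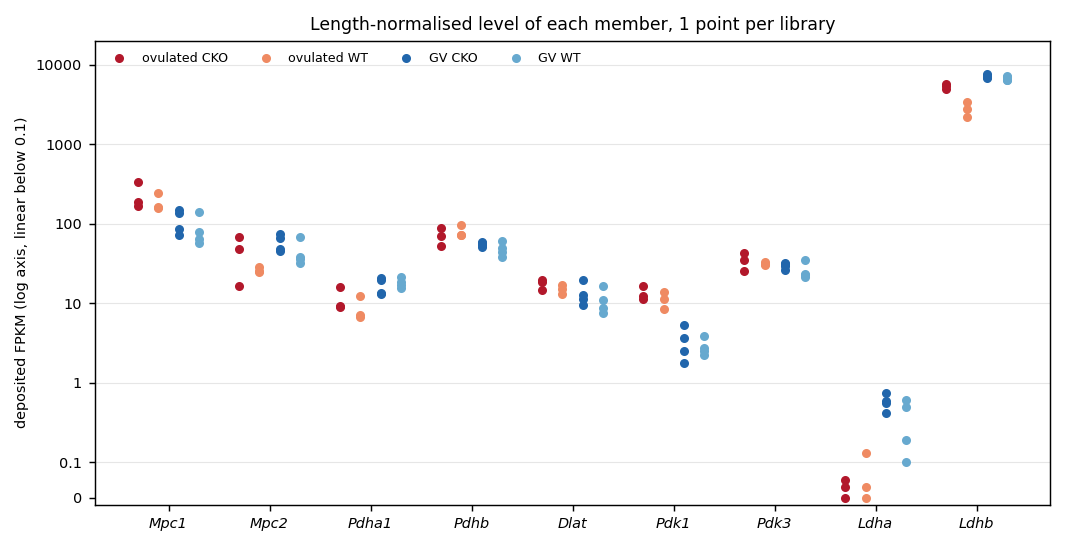
Deposited FPKM (vertical axis, logarithmic above 0.1) of the 9 members, 1 point per library, coloured by group. Ldhb lies between 2215 and 7622 FPKM in every library, Ldha at or under 0.75, and the other 7 genes in between.

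The FPKM ratios of 3 pairs of partner genes lay at different levels in the 2 stages. PDHA1 and PDHB are partners in 1 enzyme, and the Pdhb to Pdha1 ratio had a median of 7.77 in ovulated CKO and 10.7 in ovulated WT libraries, against 3.34 in GV CKO and 2.50 in GV WT libraries. The ratio of Mpc1 to Mpc2, the carrier subunits, had a median of 6.83 in ovulated CKO and 6.33 in ovulated WT, against 1.81 in GV CKO and 1.93 in GV WT libraries. For the 2 kinase transcripts the median Pdk3 to Pdk1 ratio was 2.85 in ovulated CKO and 2.66 in ovulated WT, against 10.6 in GV CKO and 9.14 in GV WT libraries. In WT the ranges of all 3 ratios were apart between the stages. In CKO the Pdk3 to Pdk1 and Mpc1 to Mpc2 ranges were also apart, while 1 ovulated library had a Pdhb to Pdha1 ratio of 3.25, inside the GV CKO range of 2.74 to 4.43. The ratio of Pdhb to Dlat, of the same complex, stayed closer, with medians of 4.51 in ovulated CKO, 5.47 in ovulated WT, 4.72 in GV CKO and 4.69 in GV WT libraries. These ratios are descriptions without a test.

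In ovulated oocytes, where loss of Mff was compared with WT at the end of maturation, none of the 8 members that passed the filter on low counts was called by edgeR's quasi-likelihood test at adjusted p under 0.05, against 7.84% of 12010 genes tested (942 genes, or 341 without ovulated CKO replicate 2). Ldhb came closest: every CKO library was above every WT library, by about 1.69-fold. Among the other 7 members the groups overlapped, and 0 of them had an unadjusted p under 0.05, against 23.3% of all genes. DESeq2 called 1 member, Ldhb, and 1593 of 12006 genes over the whole table.

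Ldhb measured 4668, 3688 and 5047 CPM in ovulated CKO oocytes, against 3195, 2686 and 2261 CPM in ovulated WT oocytes. The lowest CKO library thus exceeded the highest WT library, as 15.8% of all genes did in this direction. The log2 fold change was 0.75 (SE 0.27, 95% interval 0.19 to 1.32, edgeR adjusted p = 0.096). It was called with DESeq2 (0.74, adjusted p = 0.0336) and with library totals in place of TMM factors (0.92, adjusted p = 0.0243). The replicate number as a block (0.75, adjusted p = 0.0259) and limma on log2(FPKM + 0.1) (0.95, adjusted p = 0.037) called it too. Over all genes DESeq2 called 1593 of 12006. Of 12010 genes library totals called 963, the block 1630 and this limma fit 748. The Ldhb value was positive in all 16 alternatives, at 0.45 to 0.95, and smallest when each library's trend on transcript length was removed (0.45, adjusted p = 0.352). In ovulated oocytes 15 of 16 listed oocyte markers were tested. Of these, 6 were called higher in CKO and none lower, against 6.44% and 1.4% of all genes. Relative to library totals without TMM factors, the oocyte maturation markers summed to 12095 to 18806 CPM in CKO and 17149 to 25023 CPM in WT libraries. With TMM factors, edgeR called none of the 6 maturation markers, and their median log2 fold change was -0.60. At an unadjusted edgeR p under 0.05 there were 3 of them, against 23.3% of all genes. The part of both marker lists in the Ldhb difference was not tested. In bulk libraries of this kind, fewer cells of a type and less RNA per cell cannot be told apart.

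The carrier and the dehydrogenase complex showed no such separation. Mpc1 measured 98.3, 92.5 and 192 CPM in ovulated CKO and 98.6, 104 and 166 CPM in ovulated WT oocytes, a log2 fold change of 0.08 (SE 0.31, 95% interval -0.59 to 0.75). Mpc2 measured 7.88, 27.4 and 22.8 CPM in ovulated CKO and 14.4, 13.4 and 13.5 CPM in ovulated WT oocytes. Its 3 WT libraries lay close together, while 1 CKO library was below all of them and the other 2 above, and the log2 fold change was 0.53 (SE 0.39, 95% interval -0.30 to 1.35).

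Pdha1, the subunit that the kinases phosphorylate, measured 19.0, 29.0 and 19.8 CPM in ovulated CKO and 15.1, 28.8 and 17.6 CPM in ovulated WT oocytes. Pdhb, its partner, measured 71.3, 45.4 and 91.6 CPM in CKO and 77.7, 80.9 and 115 CPM in WT oocytes, with a log2 fold change of -0.37 (SE 0.29, 95% interval -0.98 to 0.25). Dlat, which carries the acetyl group, measured 45.1, 47.6 and 61.5 CPM in CKO and 42.4, 50.8 and 60.9 CPM in WT oocytes. For each of these 3 subunits the spread within a genotype was as wide as the distance between the genotypes, and the log2 fold changes of Pdha1 (0.18, 95% interval -0.49 to 0.85) and Dlat (0.03, 95% interval -0.52 to 0.58) leave room for differences of either sign.

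The kinases overlapped as well. Pdk1 measured 42.4, 28.8 and 30.5 CPM in ovulated CKO and 38.1, 31.9 and 27.2 CPM in ovulated WT oocytes (log2 fold change 0.10, SE 0.27). Pdk3 measured 37.8, 44.2 and 63.8 CPM in CKO and 49.0, 49.2 and 56.9 CPM in WT oocytes (log2 fold change -0.06, SE 0.27). Ldha did not pass the filter: it had 2, 1 and 0 counts in ovulated CKO and 5, 0 and 1 counts in ovulated WT libraries. A count of 0 allows up to 3 counts, which corresponds to 0.0762 to 0.0901 CPM in CKO and 0.0932 to 0.107 CPM in WT libraries. A genotype difference in Ldha was not detectable at this depth in ovulated oocytes. Such limits cover counting error only, since PCR copies were not told apart.

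**Figure D2:**
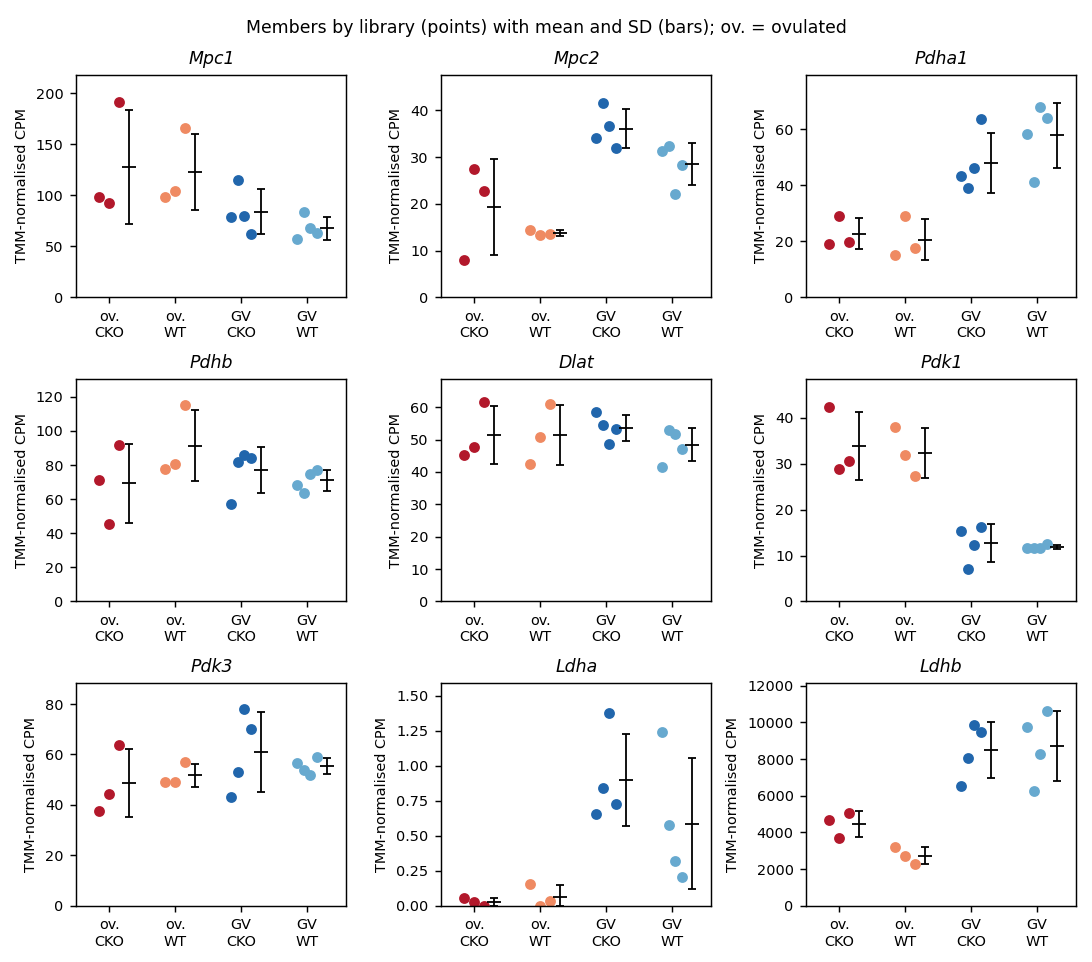
TMM-normalised CPM of each member (1 panel each, vertical axes from 0), 1 point per library, with the mean and SD of each group as a bar to the right of its points. The Ldhb points of ovulated CKO (3688 to 5047) lie above those of ovulated WT (2261 to 3195), whereas the GV groups overlap for all 9 genes.

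In GV oocytes none of the 9 members was called between CKO and WT, none had an unadjusted p under 0.05 in edgeR, and DESeq2 and limma on the FPKM called none. The whole table had 2 calls among 12298 genes (0.0163%), and 6.66% of genes had an unadjusted p under 0.05. The libraries of the 2 genotypes overlapped for each of the 9 members, and did not overlap for 4.59% of all genes.

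Ldhb measured 6502, 8071, 9847 and 9476 CPM in GV CKO and 9768, 6272, 8261 and 10601 CPM in GV WT oocytes, a log2 fold change of -0.06 (SE 0.31, 95% interval -0.73 to 0.61). Its lowest values were in GV CKO replicate 1 and GV WT replicate 2, which also had the lowest shares of counts in the 100 most abundant genes. In FPKM, which carries no TMM factor, the same 2 libraries measured 7622 and 6982, and without them and GV CKO replicate 2 the log2 fold change of Ldhb was 0 (adjusted p = 0.9996). Ldha had 23, 20, 28 and 16 counts in GV CKO and 25, 18, 7 and 4 counts in GV WT libraries, a log2 fold change of 0.59 (SE 0.52, 95% interval -0.55 to 1.72).

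Mpc1 measured 78.3, 115, 79.9 and 62.1 CPM in GV CKO and 57.2, 83.4, 67.7 and 62.6 CPM in GV WT oocytes, a log2 fold change of 0.29 (SE 0.21). In FPKM it stood at 138 and 147 in GV CKO replicates 1 and 2 and at 141 in GV WT replicate 2, the 3 libraries with low shares in abundant genes, and between 56.5 and 85.7 in the other 5. Mpc2 measured 34.1, 41.7, 36.7 and 31.9 CPM in GV CKO and 31.3, 32.4, 22.2 and 28.3 CPM in GV WT oocytes, a log2 fold change of 0.32 (SE 0.19, 95% interval -0.09 to 0.74). Only the lowest CKO value of Mpc2 lay within the WT range.

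Pdha1 measured 43.3, 39.0, 46.2 and 63.4 CPM in GV CKO and 58.2, 41.3, 67.7 and 63.8 CPM in GV WT oocytes (log2 fold change -0.28, SE 0.23). Pdhb measured 56.9, 82.0, 85.6 and 84.2 CPM in GV CKO and 68.4, 63.8, 74.9 and 77.2 CPM in GV WT oocytes (log2 fold change 0.10, SE 0.19). Dlat lay between 48.7 and 58.4 CPM in GV CKO and between 41.6 and 53.0 CPM in GV WT oocytes (log2 fold change 0.14, SE 0.17). The genotypes overlapped for all 3 subunits.

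Pdk1 measured 15.3, 7.13, 12.4 and 16.2 CPM in GV CKO and 11.5, 11.6, 11.6 and 12.4 CPM in GV WT oocytes, a log2 fold change of 0.12 (SE 0.27). Its CKO values spread on both sides of a narrow WT range, with a coefficient of variation of 32.1% in CKO against 3.69% in WT. Pdk3 measured 43.1, 52.9, 78.2 and 69.9 CPM in GV CKO and 56.5, 54.0, 51.9 and 59.0 CPM in GV WT oocytes, a log2 fold change of 0.13 (SE 0.21), and its coefficient of variation was 26.1% in CKO and 5.54% in WT. The difference in spread was not tested.

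**Figure D3:**
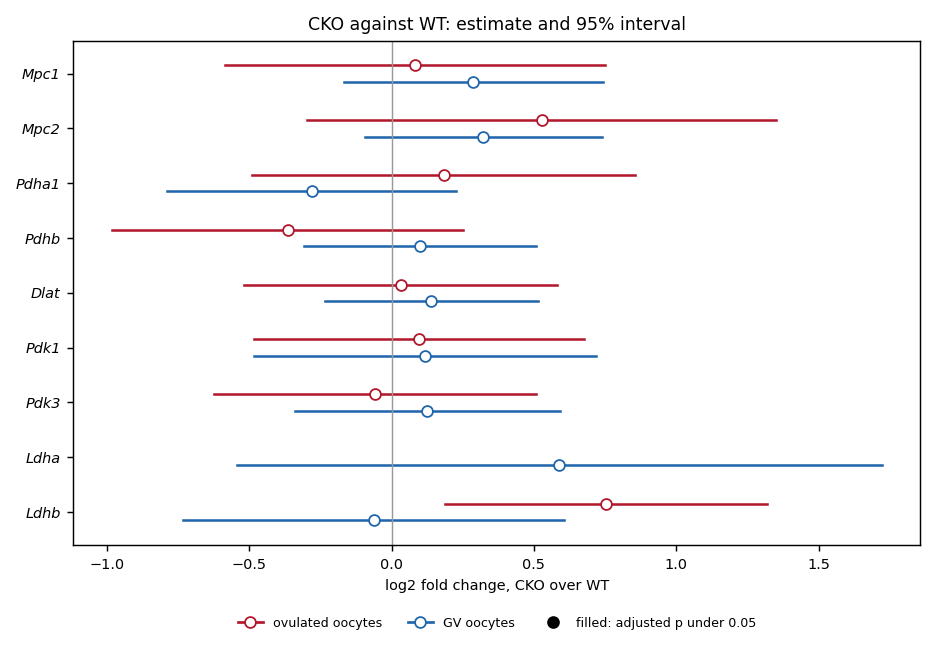
log2 fold change of CKO over WT for each member in ovulated (red) and GV oocytes (blue), with 95% intervals from the edgeR fits; Ldha was not tested in ovulated oocytes. All points are open, since none was called, and Ldhb in ovulated oocytes (0.75, interval 0.19 to 1.32) has the only interval above 0.

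An interaction term over the 14 libraries compared the genotype difference of ovulated oocytes with that of GV oocytes. None of the 9 members was called, against 3.26% of 13199 genes, none had an unadjusted p under 0.05 in edgeR, against 15.5% of genes, and DESeq2 and limma on the FPKM called none. For Ldhb the CKO to WT difference was 0.76 larger in ovulated than in GV oocytes on the log2 scale (SE 0.39, 95% interval -0.06 to 1.58, adjusted p = 0.369). For Pdhb it was -0.51 (SE 0.36, 95% interval -1.27 to 0.25). The effects of Mff loss on Ldhb in ovulated and in GV oocytes are therefore not shown to differ.

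**Figure D4:**
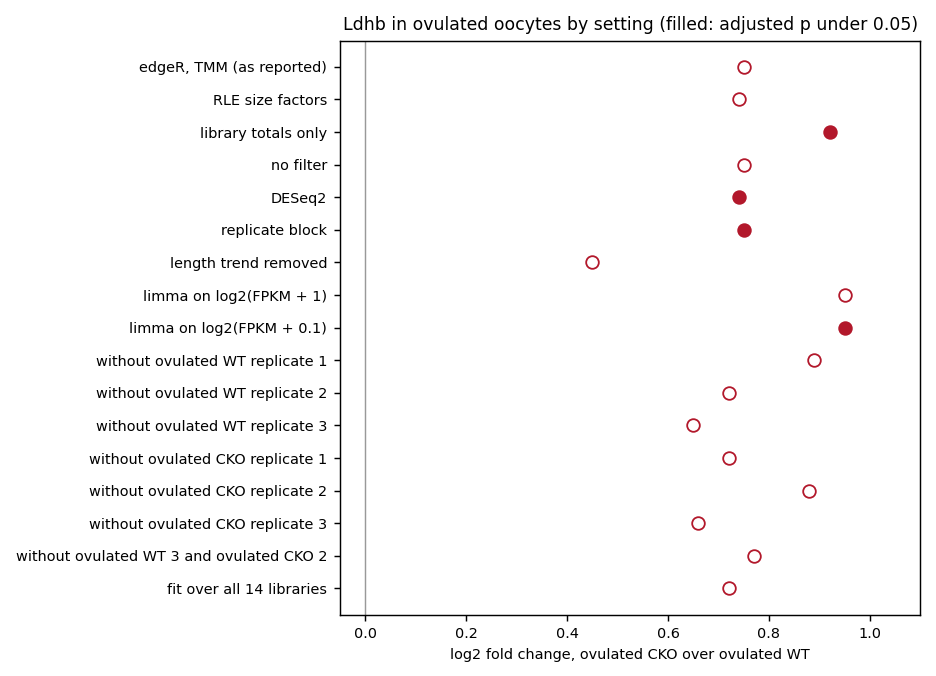
log2 fold change of Ldhb, ovulated CKO over ovulated WT, under the reported edgeR fit (top) and 16 alternatives; filled points had an adjusted p under 0.05. All 17 values lie between 0.45 and 0.95, and 4 alternatives called the gene.

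After ovulation, oocytes of both genotypes had relatively more Pdk1 mRNA and relatively less Ldha, Ldhb, Pdha1 and Mpc2 mRNA than at the GV stage, and in WT Mpc1 was also higher. In CKO oocytes that is 5 of 9 members called, 1 higher and 4 lower, against 54.4% of 13199 genes, 23.2% higher and 31.2% lower. In WT oocytes 6 of 9 were called, 2 higher and 4 lower, against 66.4% of genes, 30.3% higher and 36.2% lower. Both counts are near the background. They include Ldha, which passed the filter on low counts only through its GV libraries, where it is high, so its call was favoured in advance. Among all genes, every ovulated library was above every GV library for 21.8% in CKO and 31.4% in WT, and below for 30.6% in CKO and 37.3% in WT. Dlat, Pdk3 and Pdhb were not called in either genotype by edgeR as reported, although some alternatives called Pdhb and Pdk3. All of these are shares of the mRNA in a library, the stages come from separate tables, and stage and any difference in how the tables were made cannot be told apart. With library totals in place of TMM factors the median log2 change of all genes was 0.33 in place of -0.19 in CKO and 0.24 in place of -0.17 in WT, and calls that were higher made up 61.3% in place of 42.6% in CKO and 55.1% in place of 45.5% in WT.

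The carrier subunits went opposite ways in WT. Mpc1 was higher in every ovulated WT library than in any GV WT library, and its log2 fold change reached 0.86 (SE 0.29, adjusted p = 0.0153). Without ovulated WT replicate 3, which had the highest WT value, it was 0.59 (adjusted p = 0.0884). For CKO oocytes the Mpc1 value was 0.61 (SE 0.29, adjusted p = 0.0872), and 12 of 24 alternatives called it. Mpc2 was lower in every ovulated library than in any GV library of the same genotype, by log2 -0.90 (SE 0.32, adjusted p = 0.025) in CKO oocytes and -1.05 (SE 0.32, adjusted p = 0.00829) in WT.

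The fall of Mpc2 did not hold under every setting. With the trend on transcript length removed it turned to 0.13 (adjusted p = 0.671) in CKO and 0.76 (adjusted p = 0.00887) in WT. By the length that counts and FPKM imply, which that setting used, Mpc2 is the shortest of the 9. With library totals it was -0.35 (adjusted p = 0.48) in CKO and -0.66 (adjusted p = 0.165) in WT. With limma on both FPKM scales it was -0.58 and -0.6 in CKO (adjusted p = 0.206 and 0.199). In WT limma gave -0.65 and -0.67 (adjusted p = 0.144 and 0.138). In CKO its call was also lost without GV CKO replicate 2 (adjusted p = 0.0562) or without ovulated CKO replicate 1 (adjusted p = 0.0926). The same held without the filter (adjusted p = 0.0655), and without GV WT replicate 2 and GV CKO replicates 1 and 2 (adjusted p = 0.074). Of 24 alternatives, 16 called Mpc2 in CKO and 21 in WT, 1 of the latter with the opposite sign.

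Of the 3 members that encode dehydrogenase subunits, edgeR called Pdha1 and not Pdhb or Dlat. It was lower in every ovulated library than in any GV library of the same genotype, at log2 -1.08 (SE 0.29, adjusted p = 0.00403) in CKO oocytes and log2 -1.49 (SE 0.29, adjusted p = 0.000222) in WT oocytes. In CKO the call was lost with library totals (-0.53, adjusted p = 0.176) and with limma on the FPKM, and in WT it held in all 24 alternatives, at -1.83 to -1.01. Pdhb, its partner subunit, had log2 fold changes of -0.15 (SE 0.26) in CKO and 0.36 (SE 0.25) in WT, where every ovulated library was above every GV library. With the length trend removed Pdhb was called in CKO, at 1.00 (adjusted p = 0.00142), and in WT, at 1.66 (adjusted p = 7.56e-06). In WT it was also called with library totals (0.77, adjusted p = 0.0127) and with limma on both FPKM scales (0.74 and 0.75, adjusted p = 0.0109 each). Dlat had log2 fold changes of -0.06 (SE 0.22) in CKO and 0.09 (SE 0.22) in WT, and no alternative called it.

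Of the kinases, Pdk1 rose in both genotypes. Its log2 fold change was 1.41 in CKO (SE 0.27, adjusted p = 0.000377) and 1.46 in WT (SE 0.28, adjusted p = 0.000156), that is 2.65-fold and 2.75-fold. Every ovulated library was above every GV library, and the call held in all 24 alternatives in each genotype, at 1.21 to 2.08 in CKO and 1.24 to 1.95 in WT. Pdk3 had log2 fold changes of -0.33 (SE 0.25, adjusted p = 0.275) in CKO and -0.10 (SE 0.25, adjusted p = 0.739) in WT, with overlapping stages. It was called in CKO without GV WT replicate 2 and GV CKO replicates 1 and 2 (-0.62, adjusted p = 0.0416), and in WT with the opposite sign when the length trend was removed (0.72, adjusted p = 0.00503).

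Ldhb was lower after ovulation. Ldha, at the edge of detection, also had fewer counts there. It passed the filter on low counts of the joint fit only through its GV libraries. Ldhb had a log2 fold change of -0.92 in CKO (SE 0.28, adjusted p = 0.0102) and -1.68 in WT (SE 0.29, adjusted p = 6.57e-05), and in each genotype every ovulated library was below every GV library. With the trend on transcript length removed these values were 0.29 (adjusted p = 0.393) in CKO and -0.19 (adjusted p = 0.552) in WT. The CKO value was -0.38 (adjusted p = 0.0661) with library totals and -0.73 (adjusted p = 0.0699) without ovulated WT replicate 3 and ovulated CKO replicate 2. Of 24 alternatives, 21 called Ldhb in CKO and 23 in WT. Ldha summed to 3 counts in the ovulated and 87 counts in the GV libraries of CKO, a GV level 30.8-fold the ovulated one in CPM, with a counting interval of 10.2 to 152. In WT it summed to 6 counts in the ovulated and 54 counts in the GV libraries, 8.83-fold with a counting interval of 3.80 to 25.1. Both counting intervals pool the counts of a group and leave out the spread between libraries, so they are too narrow for a difference between groups. Of the 6 ovulated WT counts 5 came from ovulated WT replicate 1. Leaving out single libraries moved the Ldha log2 fold change in WT between -4.77, without that library, and -2.45, without GV WT replicate 1. With the length trend removed Ldha was not called in WT (adjusted p = 0.0753).

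**Figure D5:**
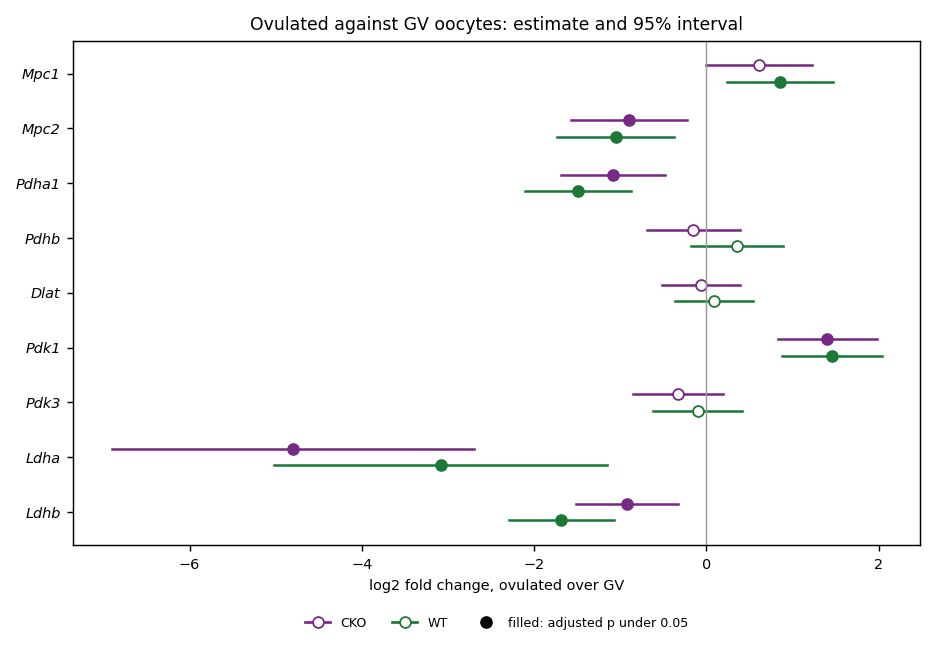
log2 fold change of ovulated over GV oocytes for each member in CKO (purple) and WT (green), with 95% intervals from the joint edgeR fit; filled points had an adjusted p under 0.05. Pdk1 lies above 0 in both genotypes (1.41 and 1.46), and Pdha1, Mpc2, Ldha and Ldhb lie below 0.

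Genes around the 9 members were counted in 5 lists. In ovulated oocytes the malate-aspartate shuttle, which carries reducing equivalents from cytosolic NADH into mitochondria, had 3 of 7 members called between CKO and WT, 1 higher and 2 lower, against 6.44% of all genes higher and 1.4% lower, with a list median of -0.47 against 0.00 over all genes. DESeq2 called 4 of the 7 and limma 2 on either FPKM scale. Over all genes DESeq2 called 1593 of 12006, and limma 546 (FPKM + 1) and 748 (FPKM + 0.1) of 12010. At an unadjusted edgeR p under 0.05 there were 4, against 23.3% of all genes. Got1, the cytosolic aspartate aminotransferase, fell to 12.1 ± 1.34 CPM in ovulated CKO, against 36.6 ± 5.77 CPM in ovulated WT oocytes (SD, n = 3 each, log2 fold change -1.56, SE 0.28, adjusted p = 0.00331). Slc25a13, an inner-membrane aspartate-glutamate carrier, fell to 8.68 ± 2.43 CPM in CKO, against 27.1 ± 4.61 CPM in WT oocytes (-1.61, SE 0.32, adjusted p = 0.00657). Both calls held in all 16 alternatives. Mdh2, the mitochondrial malate dehydrogenase, was higher at 10.3 ± 6.83 CPM in CKO, against 3.43 ± 0.761 CPM in WT oocytes (1.62, SE 0.47, adjusted p = 0.0448). Both levels were far below those of GV oocytes, 178 ± 38.6 CPM in CKO and 176 ± 18.8 CPM in WT. The call of Mdh2 held in 7 of 16 alternatives. Leaving out any ovulated library except CKO replicate 1 lost the call of Mdh2, and without CKO replicate 2 it was 0.96 (adjusted p = 0.299). In GV oocytes edgeR called none of the 7 and DESeq2 called 1, against 57 of 12287 genes with DESeq2. At an unadjusted edgeR p under 0.05 there were 2, against 6.66% of all genes: Got1 at log2 -0.88 (adjusted p = 0.454) and Slc25a13 at log2 -0.95 (adjusted p = 0.455). The difference between the stages, tested as an interaction, was 1.57 for Mdh2 (adjusted p = 0.0886), -0.73 for Got1 (adjusted p = 0.298) and -0.71 for Slc25a13 (adjusted p = 0.434). In the interaction edgeR called none of the 7, and 2 had an unadjusted p under 0.05, against 15.5% of all genes. There DESeq2 called 1 of the 7 and 889 of 13191 genes.

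In the other 4 lists edgeR called 0 genes between the genotypes in ovulated or in GV oocytes or in the interaction. At an unadjusted p under 0.05 they held 6 genes in ovulated oocytes, 1 in GV oocytes and 5 in the interaction, against 23.3%, 6.66% and 15.5% of all genes in these comparisons. In these lists DESeq2 called 4 in ovulated oocytes, 0 in GV oocytes and 2 in the interaction. Over all genes it called 1593 of 12006, 57 of 12287 and 889 of 13191. The 4 lists were the remaining dehydrogenase complex genes and regulators (9 of 11 tested in ovulated and 10 in GV oocytes), lactate and pyruvate transporters and other lactate dehydrogenases (8 of 12 tested), other routes of pyruvate (7 of 9 tested) and glycolysis (14 of 23 tested). Between the stages, the complex and its regulators had 4 of 10 tested genes lower and 2 higher in CKO, and 5 lower and 3 higher in WT. Over all genes 31.2% were lower and 23.2% higher in CKO, and 36.2% lower and 30.3% higher in WT. Glycolysis had 11 of 15 tested genes lower and 4 higher in CKO, and 10 lower and 3 higher in WT, with list medians of -1.66 in CKO and -1.96 in WT against -0.19 and -0.17 over all genes.

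For 8 of the members the gene most like each over the 14 libraries was found by Pearson correlation of log2(CPM + 1), among 6532 genes with a mean of at least 10 CPM; stage, genotype and scaling are shared by these points. Ldhb was nearest to Zp2, a zona pellucida gene (r = 0.97), which measured 604 ± 159 CPM in ovulated CKO and 123 ± 23.1 CPM in ovulated WT, and 3856 ± 1441 CPM in GV CKO and 4354 ± 1322 CPM in GV WT oocytes. Mpc2 was nearest to Ranbp1 (r = 0.97), Pdk1 to Poc1b (r = 0.98), Mpc1 to Fbxl17 (r = 0.96) and Pdhb to Zfp655 (r = 0.95). Pdk3 was nearest to Entr1 (r = 0.88) and Dlat to Ruvbl1 (r = 0.83), the weakest of these 8. Ldha was nearest to Hsd3b1 (r = 0.92), a steroidogenic enzyme gene that is on the granulosa marker list and measured 0 to 0.03 CPM in ovulated CKO, 0 to 0.214 in ovulated WT, 3.08 to 46.5 in GV CKO and 2.39 to 45.6 CPM in GV WT libraries; its part in the Ldha counts was not tested.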

How the data were processed

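RNA of 14 mouse oocyte libraries was sequenced after SMART-SeqII reverse transcription and PCR preamplification, per the labels' protocols. Per stage, 2 tables were deposited. One holds estimated counts that the authors did not normalise: 17.6% of the GV and 18.3% of the ovulated entries over 0 had decimals (tolerance 0.001). The other holds FPKM, normalised by the authors per length and mapped fragments, per the file headers. The build is mm10, per the submitters' processing notes; neither aligner nor counter is named in the sources used here.

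Counts were rounded. CKO was compared with WT within each stage in edgeR 4.0.16 (R 4.3.3), using filterByExpr on the groups, TMM and robust quasi-likelihood F tests, and the 16196 shared genes were fitted over 4 groups for the stage contrasts and the interaction. Adjusted p-values are Benjamini-Hochberg over all genes tested, called under 0.05. The genotype and interaction fits, but not the stage contrasts, were also run on simulated counts drawn independently for each library. Such counts lack deviations shared between genes of a library, and no result here rests on that run. Intervals are 95%. Values per library are CPM with TMM factors over 14 libraries, except the sums over marker lists, which use library totals alone. Replicates differed beyond counting noise (chi-square per degree of freedom 20.3 to 336 over 18 pairs).

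Named outside the members were Mff, the called genes of each pathway list in the genotype comparisons and the interaction (up to 3 per direction, by smallest p), and the gene nearest each member, of which the one for Pdha1 is not reported here. The genes, lists and tests were chosen with earlier results of these data known. Alternatives were RLE size factors, no filter, DESeq2 1.42.0, the replicate number as a block, removal of each library's trend on transcript length, limma 3.58.1 on log2(FPKM + 1) and log2(FPKM + 0.1), leaving out libraries, the fit over all 14 libraries, and, chosen after seeing the data, library totals without TMM.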

Additional observations from a re-analysis of the deposited data

Results flagged for a closer look

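In groups of 4 libraries, a value was marked when its gap to the nearest other library was large against the range of the group; 18 groups (9 genes in 2 GV groups) were examined, and chance alone marks about 1 in 20. Pdhb measured 56.9 CPM in GV CKO replicate 1, below the 82.0 to 85.6 CPM of the other 3 GV CKO libraries. In that library the 100 most abundant genes held 35.2% of the counts, the lowest share among the GV libraries, and its deposited Pdhb FPKM of 56.9 lay within the range of the other 3. Pdk1 measured 12.4 CPM in GV WT replicate 4, against 11.5 to 11.6 CPM in the other 3 GV WT libraries, a gap of the size that the close agreement of those 3 libraries makes stand out.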

How the results depend on the processing

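In ovulated oocytes edgeR called 0 members between CKO and WT, and 1, Ldhb, was called with library totals, with DESeq2, with the replicate number as a block (0.75, adjusted p = 0.0259) and with limma on log2(FPKM + 0.1). Between the stages in CKO 5 members were called, 3 with library totals, 6 with DESeq2, 4 with limma on either FPKM scale and 4 to 6 with 1 library left out. Over all genes in CKO, 7183 of 13199 were called, 6651 with library totals, 7630 of 13191 with DESeq2, and 7392 and 7342 with limma. In WT 6 members were called, and 5 to 6 with 1 library left out. The genotype and interaction counts were otherwise unchanged at 0 in GV oocytes and the interaction in every alternative run. Whether replicate numbers pair the samples was not settled. Deviations of same-numbered CKO and WT libraries correlated at -0.32 to 0.42 in GV and 0.02 to 0.19 in ovulated oocytes. The best-correlated WT library had the same number for GV CKO replicates 2 and 4 and ovulated CKO replicates 1 and 3, and another number for the remaining CKO libraries. The block is therefore given as an alternative only. Over all genes, 942 calls in ovulated oocytes became 1630 with the block, 1593 with DESeq2, 1595 in the fit over all 14 libraries, 546 with limma on log2(FPKM + 1), 235 without ovulated WT replicate 3 and ovulated CKO replicate 2, and 341 to 1652 with 1 library left out. The 2 calls in GV oocytes became 4 without the filter, with the length trend removed or in the fit over all 14 libraries, 57 with DESeq2, 63 without GV WT replicate 2 and GV CKO replicates 1 and 2, and 2 to 5 with 1 library left out. Higher calls in ovulated oocytes were 82.2% of calls, 92.8% with library totals and 67.3% with the length trend removed; the cause was not tested.

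Some differences changed sign. Most were small and not called, but Mpc2 in both genotypes and Ldhb in CKO were called lower between the stages, and with the length trend removed Mpc2 in WT, Pdhb in CKO and Pdk3 in WT were called higher. For CKO against WT in GV oocytes, Ldhb (-0.06) was 0.1 with library totals, 0.09 with limma on either FPKM scale and 0 without the 3 GV libraries named above. For CKO against WT in ovulated oocytes, Pdk3 (-0.06) was 0.13 with library totals and 0.1 with limma and without the pair of ovulated libraries named above, Mpc1 was -0.52 and Mpc2 -0.39 with the length trend removed, and without that pair Pdha1 was -0.12 and Pdhb 0.09. In the interaction, Mpc2 was -0.64 with the length trend removed; Pdk1 (-0.06) was 0.03 with RLE or DESeq2, 0 with library totals or no filter and 0.13 with limma; without the ovulated pair Dlat was 0.11, Mpc1 0.28, Mpc2 -0.14 and Pdk1 0.01. Between the stages in WT, Dlat was -0.28, Mpc2 0.76 and Pdk3 0.72 with the length trend removed, Pdk3 was 0.31 with library totals and 0.3 and 0.32 with limma, and Dlat was -0.05 without the ovulated pair. Between the stages in CKO, Pdhb was 0.38, Dlat 0.42 and Pdk3 0.24 with library totals; Pdhb was 1, Mpc2 0.13, Ldhb 0.29 and Pdk3 0.43 with the length trend removed; with limma Pdhb was 0.31 and 0.32, Dlat 0.42 and 0.45, and Pdk3 0.19. Dlat there was 0.05 with RLE or DESeq2, 0.08 without the filter, 0 without the 3 GV libraries and 0.06 without the ovulated pair, where Pdhb was 0.15.

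With each library left out in turn, CKO against WT ranged in GV oocytes from -0.17 to 0.05 for Ldhb, -0.02 to 0.34 for Pdk1 and -0.02 to 0.25 for Pdk3, and in ovulated oocytes from -0.03 to 0.48 for Pdha1, -0.12 to 0.19 for Dlat, -0.34 to 0.38 for Mpc1, -0.1 to 0.23 for Pdk1 and -0.3 to 0.09 for Pdk3. The interaction ranged from -0.3 to 0.07 for Dlat, -0.67 to 0.11 for Mpc1, -0.18 to 0.53 for Mpc2 and -0.25 to 0.08 for Pdk1. The stage difference ranged from -0.05 to 0.2 for Dlat in WT, and in CKO from -0.41 to 0.07 for Pdhb and -0.22 to 0.03 for Dlat. Depth limits Ldha, with at most 28 counts in a library.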

Other observations

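Outside the 9 members, chosen after their values were seen, the complex subunits Pdhx and Dld had more mRNA per length than those among the members in GV oocytes. Pdha2, on the same list, was lower than all of these, at 1.11 ± 0.437 FPKM in GV CKO and 1.02 ± 0.368 FPKM in GV WT oocytes. Pdhx, which anchors the third enzyme, measured 180.1 ± 30.4 FPKM in GV CKO and 158 ± 10.2 FPKM in GV WT oocytes (SD, n = 4 each). Dld, the third enzyme, measured 134 ± 19.9 FPKM in GV CKO and 114 ± 6.69 FPKM in GV WT oocytes. Dlat, the second enzyme, measured 13.2 ± 4.29 FPKM in GV CKO and 11.0 ± 3.90 FPKM in GV WT oocytes. Both Pdhx and Dld were lower after ovulation, Pdhx at log2 -1.69 (SE 0.30, edgeR adjusted p = 0.000165) in CKO and -1.89 (SE 0.30, adjusted p = 3.28e-05) in WT, and Dld with -1.89 (SE 0.31, adjusted p = 7.15e-05) in CKO and -2.08 (SE 0.31, adjusted p = 1.50e-05) in WT. Neither was called between CKO and WT: Dld had a log2 fold change of 0.34 (SE 0.25) in ovulated and 0.09 (SE 0.29) in GV oocytes.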
